A study of Triticum aestivum with 96 samples.

Results

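Gene expression at subjective night was set against that at midday in mature flag leaves of bread wheat (Triticum aestivum, the Australian cultivar Mace), by RNA-seq of whole leaves kept in continuous light. The comparison uses 24 of the 96 libraries of the series, chosen by stage and sampling time alone. The 12 night libraries are those of 17, 19 and 21 h after subjective dawn, taken at ZT45, ZT65, ZT67, ZT69, ZT89 and ZT91. The 12 midday libraries are those of 5, 7 and 9 h, taken at ZT53, ZT55, ZT57, ZT77, ZT79 and ZT81. ZT is the time in hours since the last dawn, and each time point has 2 libraries.

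All plants had grown in 12 h of light at 20 °C and 12 h of dark at 15 °C until ZT0, when the room went over to constant light at 20 °C. Subjective night is therefore the time at which these plants would earlier have been in the dark, and no plant of either window was in the dark or the cold when it was harvested. Mature plants were at ear emergence (Zadoks stage 51 to 59), and the senescent plants used further on were sown 28 days earlier in the same room. Each library holds the pooled RNA of 2 leaves, so the spread between libraries is that between pools. The first cycle comprises ZT45, ZT65 and ZT67 at night against ZT53, ZT55 and ZT57 at midday, and the second cycle ZT69, ZT89 and ZT91 against ZT77, ZT79 and ZT81, with 6 libraries a side in each. The night side of a cycle thus joins hours of neighbouring nights.

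The circadian clock of plants is known, mostly from Arabidopsis, as a loop of transcription factors that repress one another at successive times of day: CCA1 and LHY near dawn, the PRR proteins through the day, and TOC1 with the evening complex (ELF3, ELF4 and LUX) toward night. In leaves it is known to time genes of photosynthesis, starch turnover, hormone response and flowering, and transcripts under its control go on cycling when light and temperature are held constant. Bread wheat is a hexaploid, so most of these genes exist as copies on its A, B and D subgenomes. The files do not pair their identifiers with names, and 0 of the 139118 identifiers matched the RefSeq gene table for wheat. The clock, photosynthesis, starch and senescence lists drawn up for these leaves were therefore not analysed here. Genes are given by identifier, which carries the chromosome.

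The deposited values are read counts that carry a scaling factor for each library, called scaled counts below. Their totals ran from 7029142 to 8919170 per night library and from 6406953 to 7513255 per midday library. From the size of 1 read in each library, depth was estimated at 5805548 to 9280647 reads at night and 6068199 to 8130484 reads at midday. A value above 0 was found for 58772 to 61455 genes per night library and 58961 to 61567 per midday library. On the first principal component of the tested genes (31.7% of the variance), the 12 night libraries lay between 28.8 and 82.9 and the 12 midday libraries between -76.2 and -37.0. In the night window, replicate 2 of ZT45 and replicate 1 of ZT91 stood apart, with a median correlation of 0.892 and 0.877 with the other libraries of their window, where the other 22 libraries had at least 0.927. The 2 libraries of ZT91 and of ZT45 differed by a median of 0.561 and 0.453 log2 per gene, and those of the other 10 time points by 0.268 to 0.367.

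Of 42253 genes tested (mean scaled count of at least 10), 7291 were higher at night (17.3%) and 6243 were lower at night (14.8%), so that 32.0% differed between the windows at a limma adjusted p under 0.05. The median log2 difference, night minus midday, was 0.69 for the genes higher at night and -0.59 for those lower at night, against -0.01 over all tested genes. A difference of at least 2-fold was seen for 1959 genes higher and 1060 lower at night, at least 4-fold for 319 and 188, and at least 8-fold for 55 and 42. The residual standard deviation of a typical gene among libraries was 0.38 log2. In whole leaves, a change in the number of cells of a type and a change in the RNA of each cell cannot be told apart. Without the 2 libraries that stood apart, 6806 of the 7291 genes were still called higher and 5631 of the 6243 still called lower, and the counts were 7933 and 6833. Since libraries of 3 times of day enter as replicates of a window, the test was also run on 1 mean per time point, where 6545 of the 7291 and 5349 of the 6243 genes kept their call.

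**Figure D1:**
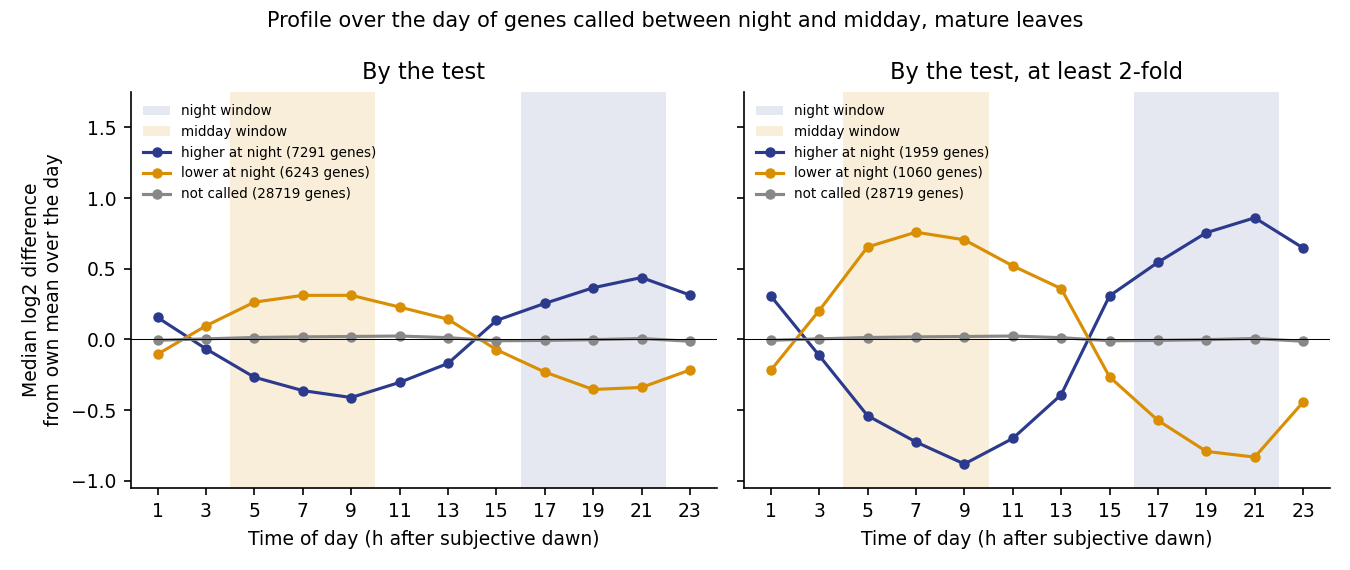
Median log2 difference from a gene's own mean over the day (vertical axis) by time of day in hours (horizontal axis), over all 48 mature libraries, for genes called higher at night, lower at night and not called. Shaded bands mark the night and midday windows that chose the first 2 groups. The right panel shows the genes with at least a 2-fold difference, where those higher at night stood at 0.86 at 21 h and at -0.88 at 9 h.

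Among genes higher at night by at least 2-fold, and in that direction in both cycles and both replicate numbers, TraesMAC4B03G02393240 on chromosome 4B had the smallest p. The largest log2 difference of any tested gene was 5.34, in another gene. Over the 12 night libraries, the scaled count of TraesMAC4B03G02393240 was 806 at the lowest, 1083 at the median and 1609 at the highest. Over the 12 midday libraries it was 21.6, 39.6 and 78.5. Every night library was far above every midday library, and the lowest night value was above the highest midday value. The log2 difference was 4.83 ± 0.16 (SE, limma adjusted p = 1.23e-19). Within the windows its mean was highest at 21 h at night, with 1301 ± 254, and lowest at 7 h at midday, with 30.4 ± 11.1 (SD, n = 4 each).

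TraesMAC4B03G02264250, also on 4B, had the next smallest p by that rule. It had 956, 1238 and 1699 scaled counts at the lowest, median and highest of the night libraries, against 131, 206 and 272 at midday, again with no overlap. The log2 difference was 2.65 ± 0.11 (SE, limma adjusted p = 1.31e-16). Per length this gene stood at 90.7 ± 15.97 FPKM at night and 14.5 ± 2.96 FPKM at midday, and TraesMAC4B03G02393240 at 130.1 ± 30.3 FPKM at night and 4.50 ± 1.67 FPKM at midday (SD, n = 12 each). In FPKM, TraesMAC4B03G02393240 thus had the higher mean at night and the lower mean at midday. In scaled counts its night mean was the lower of the 2, with 1156 against 1246.

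TraesMAC1D03G00519380 on chromosome 1D led the genes lower at night. Its scaled count was 22.2, 55.3 and 84.6 at the lowest, median and highest of the night libraries, against 918, 1191 and 1456 at midday. The groups did not overlap, and the log2 difference was -4.45 ± 0.14 (SE, limma adjusted p = 1.08e-19), the lowest value of all tested genes. Its mean fell away before the night window opened, with 493 ± 150 at 13 h and 99.6 ± 26.3 at 15 h, and it stood at 59.8 ± 19.1 at 17 h (SD, n = 4 each).

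TraesMAC3B03G01568080 on chromosome 3B was the other leading gene lower at night. It had 6.90, 9.92 and 23.3 scaled counts at the lowest, median and highest of the night libraries, against 185, 227 and 315 at midday. The groups did not overlap, and the log2 difference was -4.11 ± 0.16 (SE, limma adjusted p = 1.07e-17). All 4 leading genes kept their call and direction without either replicate number and without the libraries that stood apart. Their direction in each replicate number was part of how they were chosen. The choice by smallest p used these same libraries, so the kept calls and the lack of overlap are a description. Reads shared among the A, B and D copies could blur the value of a single copy, since the counting is not given in the sources used here.

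**Figure D2:**
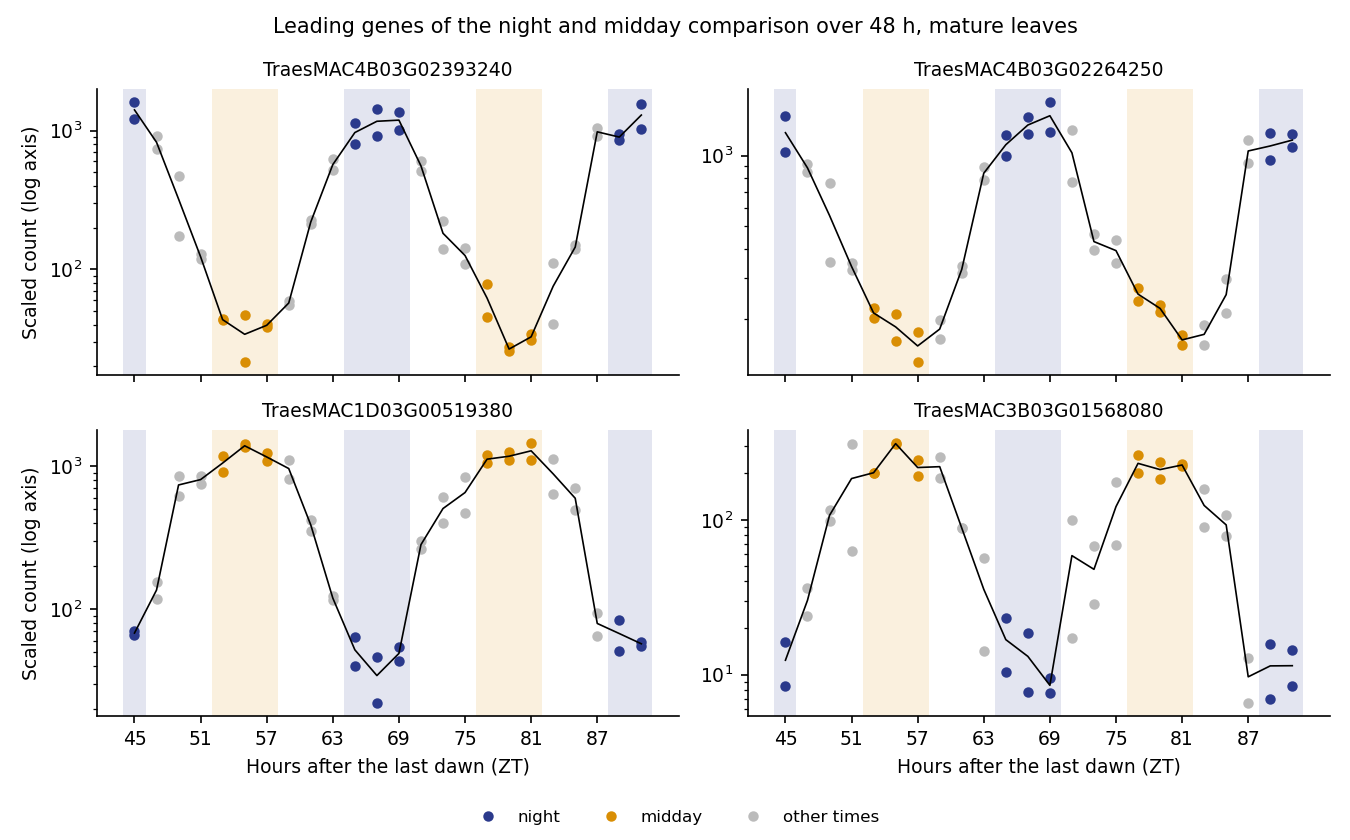
Scaled count on a log axis (vertical) by hours after the last dawn (horizontal) of the leading genes higher at night (top) and lower at night (bottom) in mature leaves. Each point is a library, lines join the mean at each time point, and shaded bands mark the night and midday windows. In each panel the 12 night points and the 12 midday points do not overlap, in either cycle.

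A stricter description that needs no model counts the genes whose 12 night values and 12 midday values do not overlap. For 1003 genes (2.37%) every night library was above every midday library, and for 562 genes (1.33%) every night library was below every midday library. Differences between the windows were seldom a matter of presence and absence. Of the genes higher at night, 3 had a mean scaled count under 1 at midday, and of those lower at night, 2 had a mean under 1 at night. In their higher window these genes had a median mean of 23.5 and 24.3 scaled counts, so they passed the filter narrowly. None of the called genes had all 12 libraries of a window at 0.

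The called genes made up a different share of the scaled count in each window. Genes higher at night took 36.5% ± 2.49 of the scaled count of a night library and 24.2% ± 1.45 of that of a midday library (SD, n = 12 each). Genes lower at night took 10.4% ± 0.687 at night and 19.04% ± 0.731 at midday. The genes that were not called took 52.02% ± 2.21 at night and 55.7% ± 1.06 at midday. These shares describe the genes that the same contrast chose and are no further evidence of a difference. As mean scaled counts per library, the genes higher at night summed to 2832420 at night and 1709890 at midday, those lower at night to 800204 and 1344934, and those not called to 4009055 and 3929993.

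The total scaled count of a library was itself higher at night, by 659440 on average, with 7723142 at night and 7063705 at midday (permutation test, two-sided, p = 0.00224). The difference was of the same size in each cycle, 657710 in the second (exact permutation p = 0.0173) and 661170 in the first (exact permutation p = 0.0952). Over both cycles, estimated reads differed less, with 7199603 at night and 6846337 at midday (permutation p = 0.347). The cycles were unlike in this. Night minus midday, reads differed by 738780 in the first cycle (exact permutation p = 0.229), more than the totals. In the second cycle they differed by -32245 (exact permutation p = 0.948). The balance of calls therefore depends on the scaling. With each library scaled to its total, 5431 genes were higher and 9866 lower at night, and the median of all tested genes moved to -0.13. All 5431 of these were among the 7291, all 6243 genes lower at night kept their call, and none turned to the other direction. With the trimmed mean of M values (TMM) the counts were 7099 and 6560. The count of genes with no overlap was 804 higher and 739 lower at night with totals equalised.

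With the deposited scaling, calls among highly expressed genes were more often toward night. Genes were ranked by their mean FPKM and cut into 5 equal groups. From the lowest to the highest, the share called higher at night was 9.28%, 12.8%, 16.9%, 20.5% and 26.8%. The share called lower at night was 14.8%, 16.9%, 16.5%, 14.5% and 11.3%. The median log2 difference of all genes in a group went the same way, from -0.12 in the lowest to 0.09 in the highest. The share of genes with at least a 2-fold difference varied less, from 3.50% to 6.05% for higher and from 2.28% to 2.69% for lower. Of the 20 genes with the highest mean FPKM, 10 were higher and 0 lower at night, and these 20 took 10.96% ± 1.28 of all FPKM at night and 8.75% ± 0.652 at midday (SD, n = 12 each). Of the top 100 genes, 21 were higher and 21 lower.

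Gene length went with the direction of the difference as well. Relative length was taken from the ratio of scaled count to FPKM, which gave a value for all 42253 genes, and the genes were cut into 4 equal groups. From the shortest to the longest, 9.93%, 13.3%, 16.02% and 19.9% were lower at night, and 18.3%, 19.2%, 18.5% and 13.1% were higher at night. The median log2 difference was 0.05 in the shortest and -0.11 in the longest group. FPKM contains this length, so the groups by level and by length are not independent of each other. Their part in the result was not tested. Neither set of groups was taken with totals equalised, where the median log2 difference of all tested genes was -0.13.

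**Figure D3:**
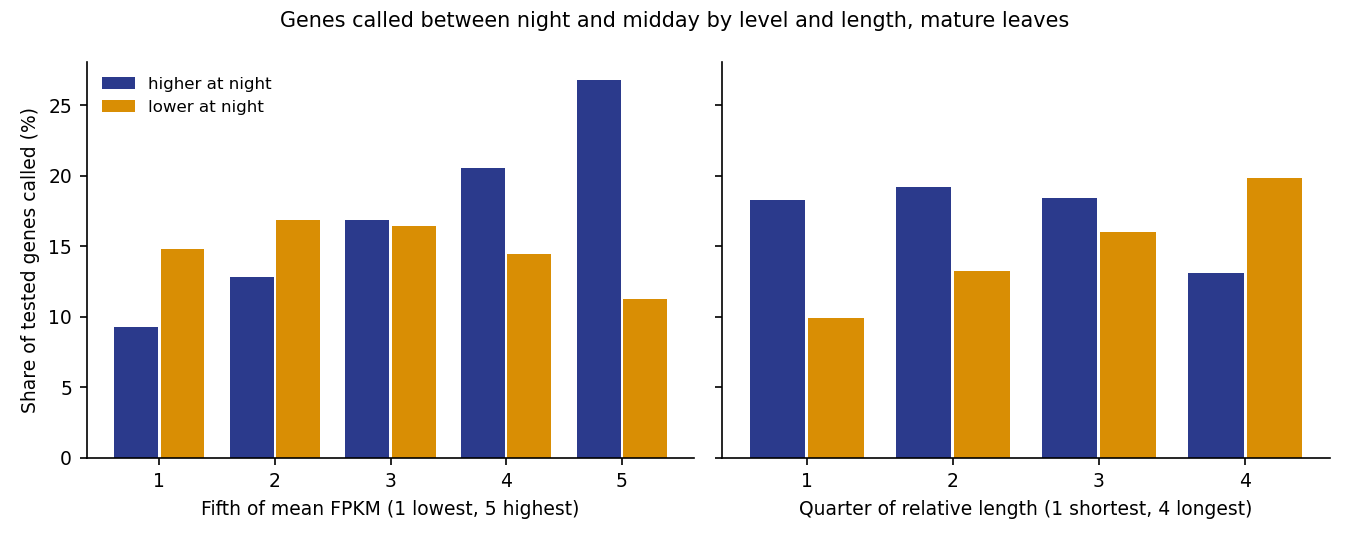
Share of tested genes called higher at night and lower at night, in percent (vertical axis), by group of mean FPKM (left) and of relative length (right). The share called higher at night is 9.28% in the lowest and 26.8% in the highest FPKM group, and the share called lower at night is 9.93% in the shortest and 19.9% in the longest group.

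The subgenomes differed little in these shares. Genes higher at night were 17.5% of the A, 17.02% of the B and 17.3% of the D genes tested, and genes lower at night 14.5%, 15.0% and 14.8%. Single chromosomes ranged from 15.9% on 2B and 5B to 19.03% on 3D for genes higher at night, and from 13.4% on 1D to 16.7% on 4D for genes lower at night. Within a chromosome, the next tested identifier of a gene higher at night was itself higher for 21.4% of them, against 17.3% over all genes. For genes lower at night these shares were 18.7% and 14.8%. With at least a 2-fold difference, they were 8.99% and 4.64% for genes higher at night, and 6.23% and 2.51% for genes lower at night. Identifier order was taken as order along the chromosome, and reads shared between tandem copies could add to these shares. No test was made of them.

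The called genes were then followed over all 12 times of day, 6 of which lie outside the windows. Of the 7291 genes higher at night, 38.6% had their highest mean at 21 h, 21.4% at 19 h and 7.60% at 17 h. Another 23.2% were highest from 23 to 3 h and 9.24% from 11 to 15 h, before the night window. Of the 6243 genes lower at night, 28.1% were highest at 9 h, 22.6% at 7 h and 18.9% at 5 h. A further 18.6% were highest from 11 to 15 h and 11.8% from 23 to 3 h. Their lowest mean fell at 19 h for 30.7% and at 21 h for 29.2%. None of the genes higher at night was highest from 5 to 9 h. The choice of genes used these same libraries, so the shares inside the windows are a description.

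For genes higher at night, levels just outside a window overlapped with those inside it. Their median log2 difference from a gene's own mean was 0.13 at 15 h and 0.31 at 23 h, just outside the night window, and 0.25 and 0.44 at 17 and 21 h, its first and last hours, so that 23 h lay above 17 h. Just outside the midday window it was -0.07 at 3 h and -0.30 at 11 h, against -0.27 at 5 h and -0.41 at 9 h inside it, so that 11 h lay below 5 h. For genes lower at night, it was -0.07 at 15 h and -0.22 at 23 h, against -0.23 at 17 h and -0.34 at 21 h. The levels of both groups crossed their own mean between 1 and 3 h and between 13 and 15 h.

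Each cycle was next tested alone, with 6 libraries a side and no library shared. In the second cycle 4736 of 42267 tested genes were higher (11.2%) and 3344 lower (7.91%) at night, and in the first cycle 4260 of 42268 were higher (10.1%) and 2839 lower (6.72%), each by limma. Over the 41407 genes tested in both, 8007 were called in the second and 6990 in the first cycle. Of these, 4612 had the same direction in both, 2933 higher and 1679 lower at night, which is 57.6% of the calls of the second and 66.0% of those of the first. In 3 genes the calls were opposite. Genes called in the first cycle had the same sign in the second for 97.5% of them, and genes called in the second had it in the first for 97.0%, against 75.2% of all tested genes. Across the 41407 genes, which share libraries within a cycle and are not independent replicates, the Pearson correlation of the differences was 0.813.

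Genes called in one cycle had smaller differences in the other, in both directions of choice. Those higher at night in the first cycle had a median of 0.84 log2 in the second and 0.95 in the first, and those lower at night -0.70 in the second and -0.90 in the first. Those chosen as higher in the second cycle had 0.90 in the second and 0.76 in the first, and those chosen as lower -0.80 in the second and -0.68 in the first. Genes chosen from other libraries, the senescent leaves, give the cycles without that choice. For 2295 genes at least 2-fold higher at night there, the median log2 difference in mature leaves was 1.12 in the second and 1.12 in the first cycle. For 1049 genes at least 2-fold lower there, it was -1.07 in the second and -1.22 in the first cycle. Over all genes called in senescent leaves, whatever the size, it was 0.46 in the second and 0.45 in the first cycle for the 9902 higher at night there, and -0.34 and -0.33 for the 9183 lower there. With each library scaled to its total, the cycles gave 3611 higher and 5270 lower genes in the second, and 3194 and 4087 in the first.

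**Figure D4:**
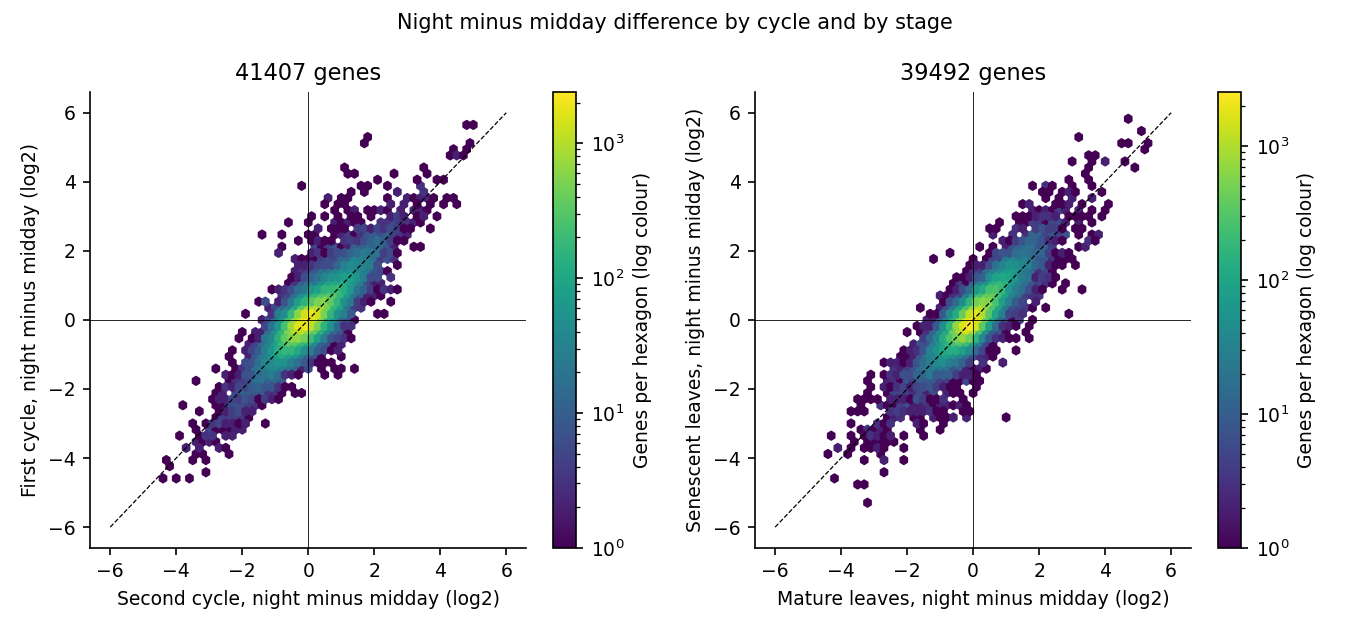
Log2 difference, night minus midday, of each gene, as hexagons coloured by the number of genes on a log scale. Left, second cycle (horizontal) against first cycle (vertical) over 41407 genes, with a Pearson correlation of 0.813; right, mature (horizontal) against senescent leaves (vertical) for genes tested in both fits and both cycles. Dashed lines mark equal differences.

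The difference between cycles was itself tested, second minus first. It passed an adjusted p under 0.05 in limma for 0 of 42253 genes (0%), while 2113 genes, 5.0% of those tested, had an unadjusted p under 0.05, and the smallest adjusted p was 0.0552. The genes nearest to the threshold are given by their values. TraesMAC4B03G02229450 (chromosome 4B) had 94.1, 115 and 234 scaled counts at the lowest, median and highest of the 6 night libraries and 75.7, 130.2 and 163 at midday in the second cycle. In the first cycle it had 135, 177 and 192 at night and 6.16, 18.1 and 58.6 at midday. Night and midday overlapped in the second cycle and did not in the first, and the log2 differences were 0.14 ± 0.24 and 2.99 ± 0.36 (SE). The gap between them was -2.84 ± 0.46 (SE, limma adjusted p = 0.0552).

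TraesMAC4A03G02204900 (4A) had the same order. Its log2 difference was 0.60 ± 0.38 in the second and 3.43 ± 0.27 in the first cycle (SE), a gap of -2.84 ± 0.51 (SE, limma adjusted p = 0.0558). Its midday values stood apart between the cycles, at 24.4 to 97.4 scaled counts in the second and 5.13 to 17.3 in the first.

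The opposite order was seen for TraesMAC5D03G03197960 and TraesMAC5D03G03197920, which lie close together by identifier on 5D and could share reads. TraesMAC5D03G03197960 had 1478 to 3048 scaled counts at night and 225 to 551 at midday in the second cycle, and 958 to 1761 at night and 582 to 907 at midday in the first. Its windows did not overlap in either cycle, and the log2 difference was 2.51 ± 0.22 in the second and 0.91 ± 0.16 in the first (SE), a gap of 1.59 ± 0.29 (SE, limma adjusted p = 0.0558). For TraesMAC5D03G03197920 the differences were 2.27 ± 0.30 and 0.16 ± 0.19 (SE), a gap of 2.11 ± 0.38 (SE, limma adjusted p = 0.0558). The highest value of both genes was in replicate 1 of ZT91, 1 of the 2 libraries that stood apart, with 3048 and 2080 scaled counts, against 2718 and 1183 in replicate 2 of that time. None of these 4 genes is called different between cycles.

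The windows were not uniform inside. Within midday, 158 genes were higher (0.374%) and 564 lower (1.33%) at 9 h than at 5 h by limma. Of the 564 genes that were lower at 9 h, 387 (68.6%) were genes higher at night, which are 17.3% of all tested genes. Of the 158 that were higher at 9 h, 48 (30.4%) were genes lower at night, which are 14.8% of all tested genes, and 32 (20.3%) were genes higher at night. The same midday libraries enter both contrasts, so these shares are descriptions. The median log2 difference, 9 h minus 5 h, was -0.13 over all 7291 genes higher at night and 0.06 over the 6243 genes lower at night. The count of 722 genes called in either direction (1.71%) was 1181 without the libraries that stood apart, and 133 and 120 without replicate 1 and 2.

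Within the night, 63 genes were higher (0.149%) and 33 lower (0.0781%) at 21 h than at 17 h by limma. The 21 h libraries are those of ZT45 and ZT69, and the 17 h libraries those of ZT65 and ZT89. On average the 21 h libraries were thus taken earlier in constant light. Hour of night and time in constant light cannot be told apart in this contrast. Of the 63, 31 (49.2%) were genes higher at night, which are 17.3% of all tested genes, and 12 were genes lower at night. Of the 33, 25 (75.8%) were genes lower at night, which are 14.8% of all tested genes, and 0 were genes higher at night. The same night libraries enter both contrasts, so these shares are descriptions. Genes higher at night had a median log2 difference, 21 h minus 17 h, of 0.18, and genes lower at night of -0.11. The count of 96 in either direction (0.227%) was 30 without the libraries that stood apart, 1 without ZT45 and ZT91, and 0 without either replicate number or on means per time point. With totals equalised, 28 genes were higher and 54 lower at 21 h.

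Finally, the difference of mature leaves was set against that of senescent leaves harvested at the same 12 times, 24 libraries from plants of the earlier sowing. The effects of stage and of sowing batch cannot be told apart here. In senescent leaves alone, 10398 of 41718 genes were higher (24.9%) and 9517 lower (22.8%) at night by limma, and the residual standard deviation was 0.38 log2 in mature and 0.31 in senescent leaves. Over 39950 genes tested in both, 12864 were called in mature and 19253 in senescent leaves. The 9957 called in the same direction are 77.4% of the calls in mature and 51.7% of those in senescent leaves. Of the genes called in mature leaves, 96% had the same sign in senescent leaves. The same share over all tested genes is not given here, so the 96% has no base beside it. Over all 39950 genes, which are not independent replicates, the Pearson correlation of the differences was 0.843. Genes higher at night in mature leaves had a median of 0.67 log2 there and 0.71 in senescent leaves, and genes lower at night -0.58 and -0.45.

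Most calls in mature leaves alone came without a tested difference between stages, though such a difference was more frequent there than among all genes. Of the 2853 genes called in mature leaves and not in senescent leaves, 173 differed between stages by the interaction term, and of 9242 called in senescent leaves only, 500 did. Over all 39950 genes tested in both stages 1074 did, and of the 9957 called in the same direction in both 347 did. The same libraries enter the calls and the interaction term, so these counts are descriptions. In all, the difference between stages, mature minus senescent, was positive for 455 (1.07%) and negative for 673 (1.59%) of 42438 genes tested in that fit. With totals equalised these counts were 576 and 454. The count of 1128 in either direction (2.66%) was 669 without ZT45 and ZT91, 235 on means per time point, and 6 and 22 without replicate 1 and 2. Among the 39950 genes tested in both stages, 54 were called in opposite directions and also differed by the interaction term, 18 of them higher and 36 lower at night in mature leaves.

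Genes that differed between stages also changed within the midday window of mature leaves more often in one direction. Among 425 with a positive difference, 72.9% were higher at 9 h than at 5 h in mature leaves, among 649 with a negative difference 27.3% were, and among all 39950 genes 49.4% were. These shares use mature libraries that also entered the interaction term, and no test was made of them.

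TraesMAC2A03G00768600 (chromosome 2A) had the smallest p among the positive differences. It had 52.2, 137 and 169 scaled counts at the lowest, median and highest of the mature night libraries, and 14.8, 58.5 and 179 of the mature midday libraries. In senescent leaves it had 0, 3.43 and 10.3 at night, against 9.36, 38.1 and 54.8 at midday. In mature leaves the windows overlapped and night was the higher at the median. In senescent leaves night was the lower at the median, and the windows overlapped slightly. The log2 difference was 1.06 ± 0.32 in mature and -2.84 ± 0.32 in senescent leaves, a gap of 3.90 ± 0.47 (SE, limma adjusted p = 7.41e-07). Senescent night values were near 0, so the size of the gap depends on the constant of 2 added before the log. With a constant of 10 it was 2.62, and with 0.5 it was 4.68. In mature leaves its mean climbed through midday, with 22.3 at 5 h, 61.5 at 7 h and 144 at 9 h (n = 4 each).

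TraesMAC6D03G03731950 (6D) had 128, 205 and 270 scaled counts at the lowest, median and highest of the mature night libraries and 59.8, 164 and 346 of the mature midday libraries. In senescent leaves it had 86.0, 106 and 155 at night and 185, 322 and 414 at midday. Mature windows overlapped over most of their range, and senescent windows did not overlap. Its log2 difference was 0.39 ± 0.24 in mature and -1.44 ± 0.13 in senescent leaves, a gap of 1.83 ± 0.29 (SE, limma adjusted p = 0.000132). In mature leaves the mean was 300.0 at 9 h and 74.4 at 5 h, so that its midday value depended on the hour. Without replicate 1 the gap was 1.57 and no longer passed the threshold (limma adjusted p = 0.154).

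**Figure D5:**
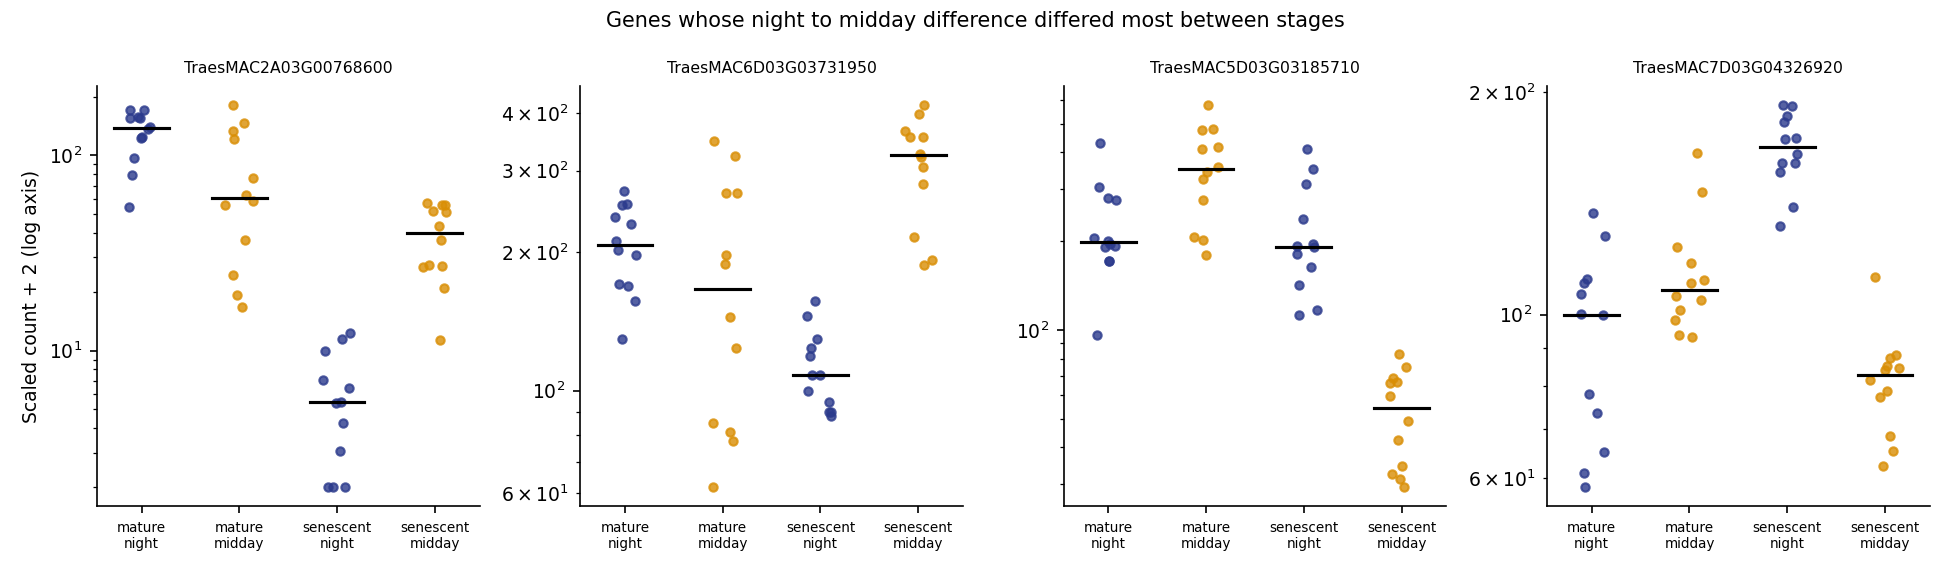
Scaled count plus 2 on a log axis (vertical) in the night and midday libraries of mature and of senescent leaves (horizontal) for the genes with the smallest p for a difference between stages. Points are libraries (12 per group) and bars are medians. The mature windows overlap in all 4 genes, and the senescent windows do not overlap in the 3 genes from the second panel on.

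TraesMAC5D03G03185710 (5D) led the negative differences. In mature leaves it had 94.4, 196 and 427 scaled counts at the lowest, median and highest of the night libraries and 177, 348 and 575 at midday. In senescent leaves it had 111, 189 and 409 at night and 27.4, 52.5 and 81.1 at midday. Night levels covered a like range in both stages, and midday levels did not overlap between stages. The log2 difference was -0.65 ± 0.20 in mature and 2.00 ± 0.21 in senescent leaves, a gap of -2.65 ± 0.30 (SE, limma adjusted p = 2.66e-07). TraesMAC7D03G04326920 (7D) had 56.4, 98.0 and 135 scaled counts at night and 91.2, 106 and 163 at midday in mature leaves, and 130, 167 and 190 at night and 60.3, 80.8 and 110 at midday in senescent leaves. Its log2 difference was -0.31 ± 0.14 in mature and 1.05 ± 0.08 in senescent leaves, a gap of -1.36 ± 0.16 (SE, limma adjusted p = 6.90e-07). Without replicate 1 this gap was -1.34 and just missed the threshold (limma adjusted p = 0.0527).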

How the data were processed

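RNA-seq was made from whole flag leaves, 2 leaves per library. The authors deposited a table of counts per gene that are scaled per library (a signal, not whole counts), and a table of FPKM. The submitters' processing notes name bcl2fastq (2.17), STAR, Cufflinks and Cuffnorm; the genome build and the counting are not given in the sources used here. Values were whole multiples of 1 read per library for 99.958% to 99.996% of low values (within 0.1 read, up to 20 reads), which gave the estimated depths.

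Columns were matched to samples by name. limma (version 3.58.1, R 4.3.3, data.table version 1.17.8; moderated test with a trend) was run on log2(scaled count + 2), for genes with a mean of at least 10 in the libraries of each fit, with Benjamini-Hochberg adjustment over all tested genes and a threshold of 0.05. Differences on this scale understate changes of low genes. Differences between cycles and between stages are interaction terms. Times of day within a window came from a fit with 6 times of day. Library totals were compared by permutation of libraries (scipy 1.17.1, 100000 resamples, or exact within a cycle), and figures used matplotlib 3.10.9. The fits were tested on simulated data. The windows, gene lists and tests were chosen with earlier results of these data known. In each comparison the named genes are, per direction, the 2 of lowest p; between the windows they also had to differ at least 2-fold, with 1 direction in both cycles and both replicate numbers.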

Additional observations from a re-analysis of the deposited data

Results flagged for a closer look

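In small groups a single library was picked out where its gap to the nearest library was a large part of the group's range (Dixon's ratio). Of 80 groups tested, 4 had such a library, and chance gives about 1 in 20. TraesMAC4B03G02393240 was low in replicate 2 of ZT55 at midday in the first cycle (21.6 scaled counts, ratio 0.744). TraesMAC2A03G00768600 was low in replicate 2 of ZT69 at night in the second cycle (77.5 scaled counts, ratio 0.636). Replicate 2 of ZT45 had the most genes above 0 of the first night group (61455, ratio 0.689). Replicate 1 of ZT91 correlated least with the other libraries of its window (0.877, ratio 0.856).

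The night to midday difference itself differed between mature and senescent leaves for 1128 of 42438 genes (2.66%) by the interaction term in limma. That count was 235 on means per time point, and 6 and 22 without replicate 1 and 2. Stage and sowing batch cannot be told apart in it. The named genes, mature minus senescent, had gaps of 3.90 log2 (TraesMAC2A03G00768600), 1.83 (TraesMAC6D03G03731950), -2.65 (TraesMAC5D03G03185710) and -1.36 (TraesMAC7D03G04326920).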

How the results depend on the processing

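The 4 leading genes of the windows were chosen for 1 direction in both cycles and both replicate numbers. The log2 difference of each named gene kept its sign under the alternatives that were run. The balance of calls did not: scaled to the total, more genes were lower than higher at night (9866 against 5431) and in each cycle, and the balance between stages and within the night turned as well. With a mean of at least 50, 3656 of 22428 tested genes were lower at night (16.3%, from fewer genes tested). With an absolute log2 difference of at least 1, 1959 were higher and 1060 lower. Leaving out a library or a replicate number gave 4019 to 7584 genes higher and 2643 to 6554 lower, the low ends without replicate 2. The first cycle had 4614 calls on time-point means and 1326 to 2182 without a replicate number, and the second cycle 1894 to 4077. The difference between cycles was called for 1 gene with a pseudocount of 10, 10 genes with a mean of at least 50 and 1 gene without a filter; at a mean of at least 50 the 4 named genes passed (adjusted p = 0.0493), and TraesMAC4B03G02229450 also with a pseudocount of 10 (adjusted p = 0.0250). The difference between stages was called for 235 genes on time-point means, 669 without ZT45 and ZT91 and 6 to 22 without a replicate number. The count within the night was 147 with a pseudocount of 10, 59 on FPKM, 62 with the replicate block, 0 on time-point means, 1 without ZT45 and ZT91, 30 without the libraries that stood apart (chosen after seeing the data) and 0 to 0 without a replicate number. Within midday it was 447, 1208 and 1181 under the same last settings on libraries, and 120 to 133. The cause was not tested, save that leaving out a replicate number leaves fewer libraries. All libraries of ZT45 and ZT91, with those that stood apart, are of the night window, so leaving them out changed no midday value.

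Replicate numbers did not pair the libraries: over 66 pairs of time points, same-numbered deviations correlated by a median of 0.0067 (-0.40 to 0.39; 19 above 0.1), and at 7 of 12 time points libraries were on average nearer their own number. With the replicate block 7245 genes were higher and 6186 lower at night. The planned count tests were not run, because the deposited values are scaled. Depth limits genes of low level most, and FPKM, TMM and median-ratio scaling kept the main counts within 1.5 times.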
